A study of Homo sapiens with 4 samples.

Results

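The genes described here are 10 components of the desmosome: the linker gene DSP, the plakophilin genes PKP1, PKP2, PKP3 and PKP4, the plakoglobin gene JUP, the desmosomal cadherin genes DSG2, DSC2 and DSC3, and the membrane protein gene PERP. The members are named genes, picked with earlier results of these data known, and no value enters the rule: every probe set that the platform annotation gives to exactly 1 of these genes was taken, which made 27 of the 41091 single-gene probe sets and 10 of the 19775 genes named on the array. UM-UC-3 is an established cell line from a human bladder carcinoma; it was stably transfected either with GFP-tagged RhoGDI2 (2 arrays) or with GFP alone as the control (2 arrays), and the transfected cells of both groups were collected by FACS. Per the labels, the control cells were cotransfected with a puromycin selection plasmid, and cells were harvested while growing in log phase. Arrays A and B of each group are biological replicates, and the same letter marks samples of the 2 groups made at the same time (preparations A and B). The free-text description given to both GFP-RhoGDI2 samples is of the control transfection, so groups were taken from the titles, with which the genotype fields match. The labels name neither the promoter of the transgene nor whether each line is a clone or a pool, so a difference fixed when a line was made and an effect of the transgene cannot be told apart.

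Desmosomes are adhesive junctions that tie the intermediate filaments of neighbouring epithelial cells together. Their cadherins, the desmogleins and desmocollins, bind across the gap between cells. Inside the cell the cadherin tails bind plakoglobin and plakophilins, and desmoplakin connects this plaque to the keratin filaments. In the urothelium, the lining of the bladder, desmosomes help the cell layers withstand stretch.

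Of the 10 genes, DSP, PKP2 and DSG2 were lower in GFP-RhoGDI2 than in GFP cells, and 0 were higher. DSP fell to 32.9% of its GFP level and DSG2 to 68.2%. PKP2 read 54.5% of its GFP level, a value of uncertain size because its GFP-RhoGDI2 mean lay under the level at which probe sets were tested. JUP, PKP3, PKP4 and PERP were measured and did not pass the test. PKP1, DSC2 and DSC3 lay near the low end of the scale on all 4 arrays and were not tested.

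Values are log2 expression per probe set, and differences are GFP-RhoGDI2 minus GFP. A probe set was tested when its mean over the 4 arrays reached 4.637, the median of that mean over all probe sets, and it was called at an adjusted p under 0.05 (limma with preparation as a block, Benjamini-Hochberg over 27307 tested probe sets). The filter kept 13 of the 27 probe sets, from 7 of the 10 genes. Of these 13, limma called 4 lower and 0 higher (6 had an unadjusted p under 0.05, 2 of them PERP probe sets with higher values). Over all tested probe sets 3.01% were called lower and 4.63% higher. Both GFP-RhoGDI2 arrays lay below both GFP arrays in 7 of the 13 and above them in 4, against 27.2% and 25.0% of all tested probe sets. The median difference of the 13 was -0.14, and that of all tested probe sets -0.01. Levels of different probe sets are not set against each other, because probes differ in their response.

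**Figure D1:**
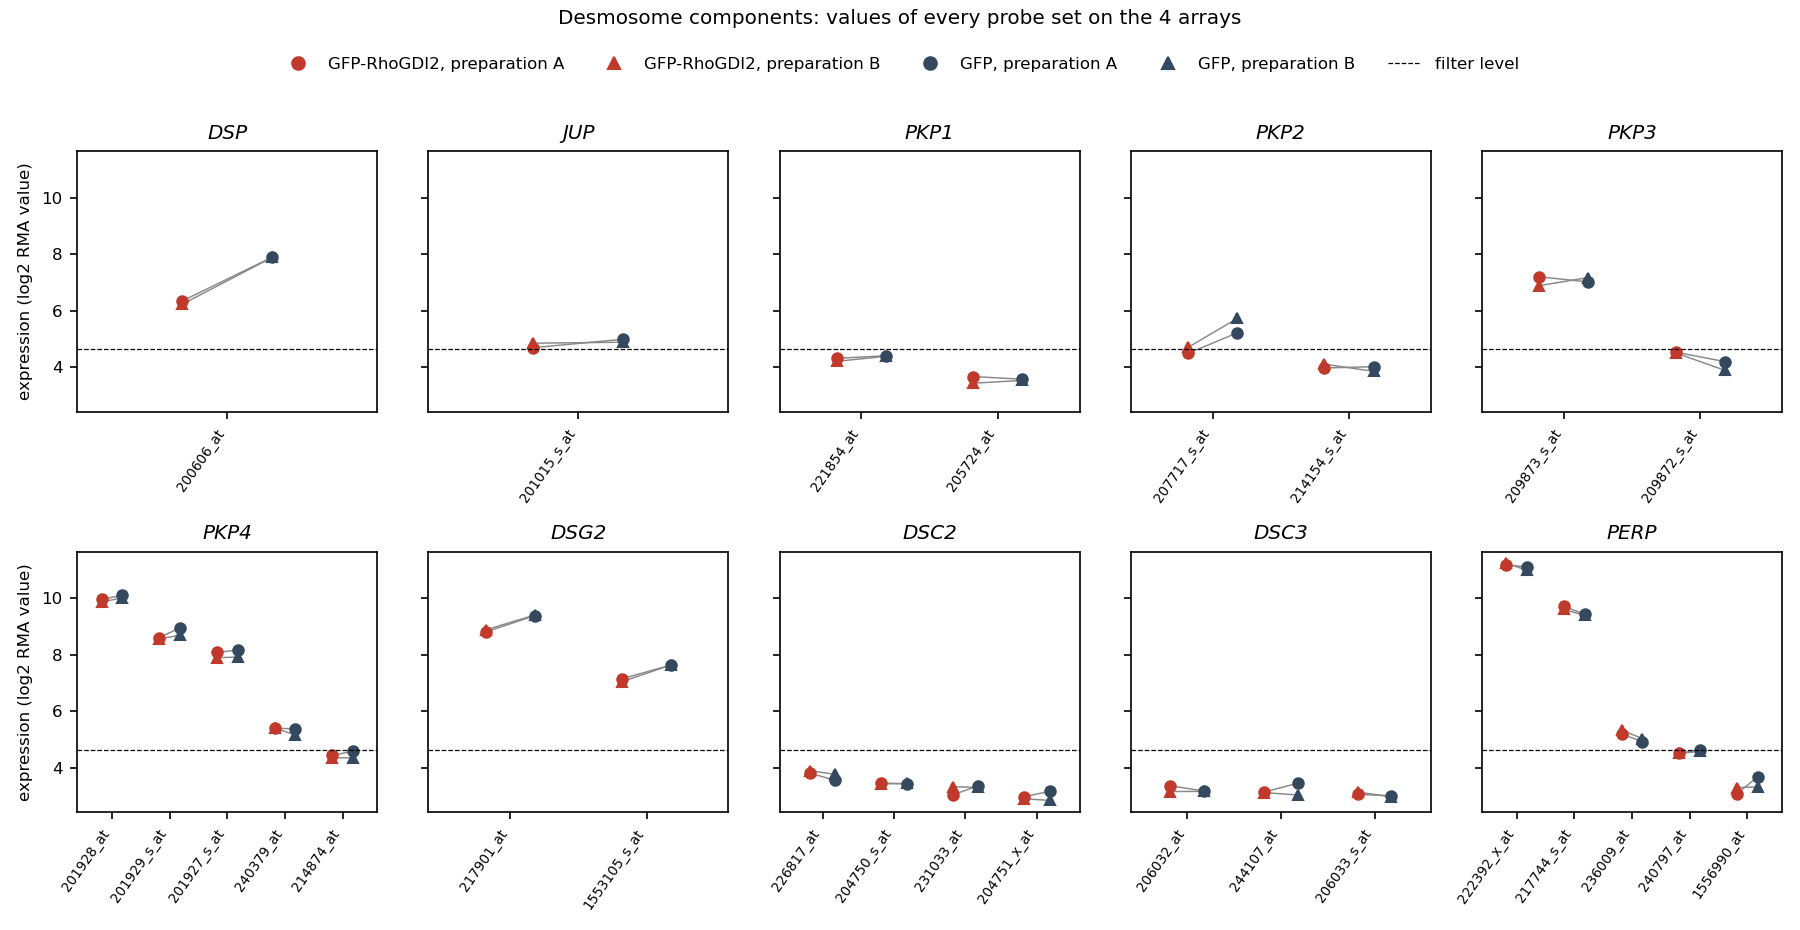
Log2 expression of all 27 probe sets of the 10 genes, 1 panel per gene; red points are GFP-RhoGDI2 arrays (left of each pair), dark points GFP arrays (right), circles preparation A and triangles preparation B, with grey lines joining arrays of 1 preparation and a dashed line at the filter level of 4.637. DSP is lower on the GFP-RhoGDI2 side by 1.55 and 1.66 in preparations A and B, both DSG2 probe sets are lower there by 0.48 to 0.59, and all DSC2 and DSC3 probe sets stay below the dashed line.

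The introduced gene was checked first. The ARHGDIB probe set 1555812_a_at, for the gene that encodes RhoGDI2, read 11.94 and 11.58 in GFP-RhoGDI2 cells A and B, against 6.51 and 6.27 in GFP cells, in the direction of the titles. Of its other probe sets, 201288_at was higher by 0.94 (adjusted p = 0.00794), and 1555811_at differed by -0.02 with overlapping groups (adjusted p = 0.953). The labelled cell type was then set against marker genes. Of 7 epithelial markers, KRT8 and KRT18 were above the filter level, while EPCAM, CDH1, KRT19, ESRP1 and GRHL2 were below it. The log2 of the summed epithelial marker level was 13.06 and 13.10 in GFP-RhoGDI2 cells, against 13.70 and 13.70 in GFP cells, a sum made up almost wholly of the KRT18 probe set. Of 10 urothelial markers, 3 were above the filter level (KRT7, GATA3 and PPARG), and the means of the uroplakin genes were below it. PPARG read 5.85 and 5.77 in GFP-RhoGDI2 cells, against 4.46 and 4.61 in GFP cells. Both GFP values lie under the filter level, so its mean passed only through the GFP-RhoGDI2 arrays. The size of its difference, 1.27, is therefore uncertain. The leukocyte markers PTPRC, CD14 and CD3E were below the filter level. The red blood cell gene HBB and, of 4 endothelial markers, PECAM1 were above it and were not called. Mesenchymal markers were above it in 5 of 7 cases, with VIM at 14.00 and 13.91 in GFP-RhoGDI2 cells and 13.85 and 13.71 in GFP cells.

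DSP encodes desmoplakin, the plaque protein that anchors keratin filaments. Its probe set 200606_at, the single DSP probe set on the array, read 6.35 and 6.23 in GFP-RhoGDI2 cells A and B, against 7.90 and 7.89 in GFP cells. The groups did not overlap, and the arrays of each group lay within about 0.1 of each other. The difference was -1.55 in preparation A and -1.66 in preparation B, with a mean of -1.60 (SE 0.095, 95% interval -1.84 to -1.37, adjusted p = 0.00116), or 3.04-fold lower. Of 12123 tested genes, 11 had a larger fall. In bulk RNA, fewer cells with DSP transcript and less transcript per cell cannot be told apart. DSP was also called in each fit that left out 1 array, with differences from -1.66 to -1.55. In each of those fits fewer of all tested probe sets were called lower than in the main fit.

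DSG2 encodes desmoglein-2, the most widely expressed desmoglein and the one found in simple epithelia and in the urothelium. Its probe set 217901_at read 8.81 and 8.88 in GFP-RhoGDI2 cells, against 9.38 and 9.41 in GFP cells. Its other probe set, 1553105_s_at, read 7.15 and 7.05 in GFP-RhoGDI2 cells and 7.64 and 7.64 in GFP cells. On neither probe set did the groups overlap. The difference was -0.55 (SE 0.092, 95% interval -0.78 to -0.32, adjusted p = 0.0273) on the first, or 1.47-fold lower. It was -0.54 (SE 0.094, 95% interval -0.77 to -0.30, adjusted p = 0.0316) on the second. The interval for DSG2 lay above that for DSP, so the fall of DSP was larger by more than these errors. The DSG2 call was lost with no filter on low values (adjusted p = 0.0509) and when any 1 array was left out, in fits without the block, where the difference on 217901_at was -0.56 without GFP A, -0.54 without GFP B, -0.52 without GFP-RhoGDI2 A and -0.59 without GFP-RhoGDI2 B.

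The promoters of the 2 falling genes with a window in the table are shown for their E-boxes: repressors of the SNAI and ZEB families, which act on epithelial junction genes, bind the letters CAGGTG, which read as CACCTG on the opposite strand. Each window runs from 250 bases before to 50 bases after the annotated gene start, on the plus strand of GRCh38.p14, from RefSeq; DSP lies at chr6:7541421-7541720 and DSG2 at chr18:31497927-31498226. Capitals mark CAGGTG or CACCTG.
DSP: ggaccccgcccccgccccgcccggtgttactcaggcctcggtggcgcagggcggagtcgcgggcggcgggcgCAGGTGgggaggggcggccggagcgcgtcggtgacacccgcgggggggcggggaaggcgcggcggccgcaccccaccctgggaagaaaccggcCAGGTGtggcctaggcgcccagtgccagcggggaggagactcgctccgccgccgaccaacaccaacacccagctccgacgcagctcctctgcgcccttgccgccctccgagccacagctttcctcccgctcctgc
DSG2: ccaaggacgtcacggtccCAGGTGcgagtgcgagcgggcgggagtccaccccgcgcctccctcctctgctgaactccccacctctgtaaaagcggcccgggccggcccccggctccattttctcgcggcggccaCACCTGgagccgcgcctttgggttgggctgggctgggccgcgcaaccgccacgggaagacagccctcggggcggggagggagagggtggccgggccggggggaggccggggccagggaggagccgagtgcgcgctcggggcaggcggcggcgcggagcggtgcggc
The DSP window holds 2 such E-boxes, starting 178 and 85 bases before the gene start, and the DSG2 window holds 2, starting 232 and 116 bases before it. Windows were found for 8 of the 10 genes, 11 in all since JUP, PKP4 and DSC2 have 2 each. Of the 11 windows, 4 hold CAGGTG or CACCTG, those of DSP and DSG2, 1 of DSC2 and 1 of JUP, whereas 20.6% of the 35116 promoter windows in the table do. The wider pattern CANNTG, which includes both, is in 5 of the 11 and in 68.7% of all windows. These letters were thus present in genes that fell and in JUP, which was not called, and a match of letters is no measure of binding.

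PKP2 encodes plakophilin-2, the plakophilin of simple epithelia and of the heart. Its probe set 207717_s_at read 4.49 and 4.71 in GFP-RhoGDI2 cells, against 5.22 and 5.73 in GFP cells. The groups did not overlap, and the GFP arrays differed from each other by about 0.5. The difference was -0.73 in preparation A and -1.02 in preparation B, with a mean of -0.87 (SE 0.111, 95% interval -1.15 to -0.60, adjusted p = 0.0135), or 1.83-fold lower. The GFP-RhoGDI2 mean of 4.60 lies under the filter level of 4.637, which leaves the size of this fall uncertain. A further probe set, 214154_s_at, was not tested and read 3.98 and 4.11 in GFP-RhoGDI2 cells and 4.02 and 3.86 in GFP cells, with overlapping groups. In fits without the block, the call was lost without GFP B (-0.62, adjusted p = 0.0795), without GFP-RhoGDI2 A (-0.77, adjusted p = 0.174) and without GFP-RhoGDI2 B (-0.98, adjusted p = 0.114), and was kept without GFP A (-1.13, adjusted p = 0.00881).

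The other plakophilins did not pass the test. PKP3, an epithelial plakophilin that binds all desmosomal cadherins, read 7.20 and 6.89 in GFP-RhoGDI2 cells on 209873_s_at, against 7.02 and 7.18 in GFP cells. The groups overlapped, and the difference was 0.18 in preparation A and -0.29 in preparation B (mean -0.05, 95% interval -0.39 to 0.28, adjusted p = 0.839). Its second probe set, 209872_s_at, was under the filter level and read 4.53 and 4.51 in GFP-RhoGDI2 cells, against 4.21 and 3.90 in GFP cells. The 2 PKP3 probe sets thus disagreed in direction.

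PKP4, also called p0071, is found in adherens junctions as well as in desmosomes. Its highest probe set, 201928_at, read 9.97 and 9.87 in GFP-RhoGDI2 cells, against 10.10 and 10.01 in GFP cells. The difference of -0.14 was smaller than its error allows to call (95% interval -0.36 to 0.09, adjusted p = 0.396). The 4 tested PKP4 probe sets differed by -0.23 to 0.14 and did not all point the same way, with 201929_s_at at -0.23 (95% interval -0.49 to 0.02, adjusted p = 0.215) and 240379_at at 0.14 (adjusted p = 0.455). The interval of 201928_at does not reach the fall of DSP.

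PKP1, the plakophilin of stratified epithelia such as the epidermis, was not tested. Its 2 probe sets ranged from 3.44 to 4.41 over the 4 arrays, with differences of -0.14 for 221854_at and 0.00 for 205724_at.

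JUP encodes plakoglobin, an armadillo protein of both desmosomes and adherens junctions that binds cadherin tails and desmoplakin. Its probe set 201015_s_at read 4.70 and 4.85 in GFP-RhoGDI2 cells, against 4.99 and 4.89 in GFP cells. The groups did not overlap, but all 4 values lay just above the filter level. The difference was -0.17 (95% interval -0.43 to 0.10, adjusted p = 0.380), and -0.30 in preparation A against -0.03 in preparation B.

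The desmocollins were low in both groups. DSC2 encodes desmocollin-2, the usual desmocollin partner of desmoglein-2. Its 4 probe sets ranged from 2.84 to 3.89 over all 4 arrays, and the highest, 226817_at, read 3.81 and 3.89 in GFP-RhoGDI2 cells and 3.56 and 3.77 in GFP cells. DSC3, the desmocollin of basal layers of stratified epithelia, ranged from 2.97 to 3.45 over its 3 probe sets. All 7 desmocollin probe sets were under the filter level and were not tested, so a change at a level this low could not be seen.

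PERP encodes a tetraspan membrane protein that is a target of p53 and p63 and is needed for desmosomes in mouse skin. Its highest probe set, 222392_x_at, read 11.18 and 11.23 in GFP-RhoGDI2 cells, against 11.11 and 10.99 in GFP cells. The probe set 217744_s_at read 9.71 and 9.60 in GFP-RhoGDI2 cells and 9.44 and 9.39 in GFP cells. The third tested probe set, 236009_at, read 5.19 and 5.34 in GFP-RhoGDI2 cells and 4.93 and 5.03 in GFP cells. In all 3 the GFP-RhoGDI2 values lay above the GFP values. The differences were 0.16 (95% interval -0.08 to 0.40, adjusted p = 0.358), 0.24 (adjusted p = 0.172) and 0.28 (adjusted p = 0.124), so PERP did not pass the test. With an intensity trend in the prior variance 217744_s_at was called higher (adjusted p = 0.0341), a setting under which 10.7% of all tested probe sets were called higher. The other 2 PERP probe sets, 240797_at and 1556990_at, were under the filter level and differed by -0.10 and -0.31.

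**Figure D2:**
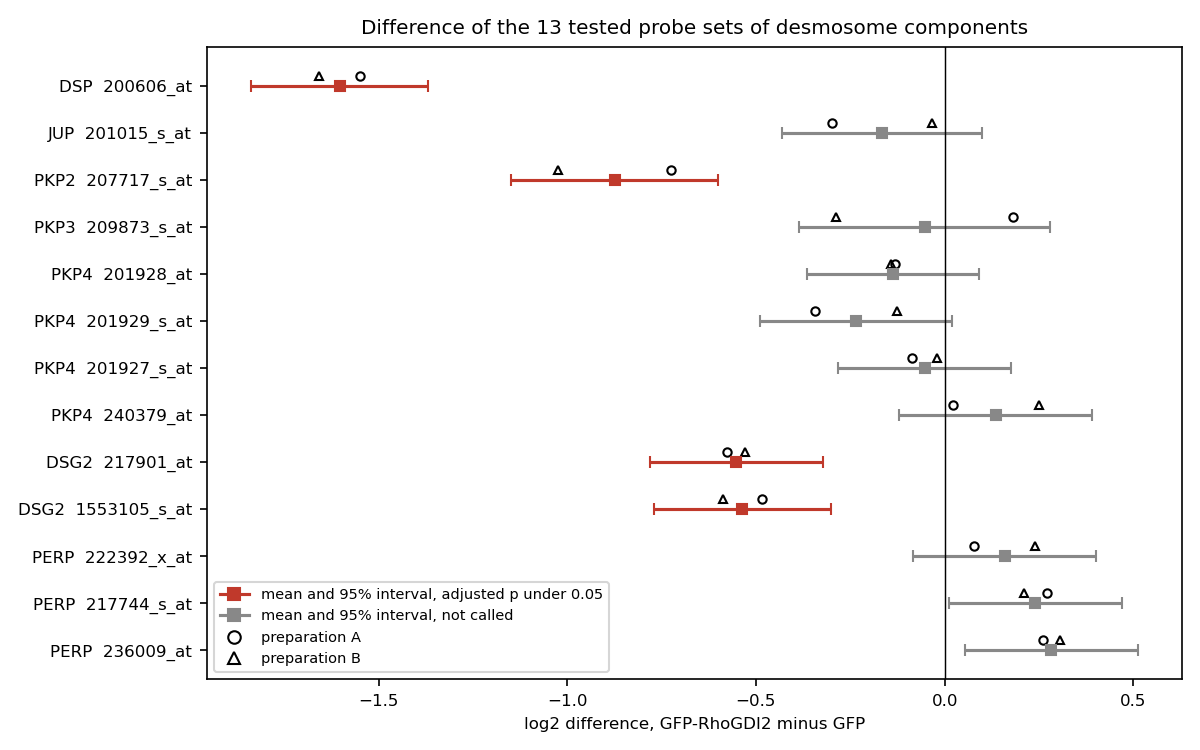
Log2 difference, GFP-RhoGDI2 minus GFP, of the 13 tested probe sets; squares are the means with 95% intervals from limma, red where called, and open circles and triangles are the differences within preparations A and B. DSP, PKP2 and both DSG2 probe sets lie left of 0 with intervals that end at or before -0.30, and PKP3 is the gene whose preparations fall on opposite sides of 0.

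Of the 13 tested probe sets, 12 had the same sign in both preparations, 8 lower and 4 higher. The same count over all tested probe sets was not made. Groups that do not overlap always have the same sign, and they made up 27.2% (below) and 25.0% (above) of all. The 9 of the 13 that were not called differed by -0.23 to 0.28. Half-widths of their 95% intervals ran from 0.227 to 0.332, so a smaller change could not be told from 0 with 2 arrays per group. A larger change could still miss the call, because the intervals are not adjusted for the number of tests. The PERP probe set 236009_at, at 0.28 with an interval of 0.05 to 0.51, was not called (limma, adjusted p = 0.124). The 14 probe sets under the filter differed by -0.31 to 0.47 and read 2.84 to 4.64.

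The genes whose pattern was most like that of DSP were found by the Euclidean distance over the 4 arrays, after each gene's own mean was subtracted, among all tested genes. They were KIT, a receptor tyrosine kinase gene (distance 0.171), the transcription factor gene ETV1 (0.184), RBP7, for a cellular retinol-binding protein (0.242), MTUS1, for a microtubule-associated protein (0.252), and the carbonic anhydrase gene CA2 (0.277). KIT, the nearest, differed by -1.62 and was called lower (adjusted p = 0.00179). With 4 arrays such a likeness says little more than that both genes fell by a similar amount.

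Genes that work beside these 10 in cell junctions were read from 8 lists, with 1 value per gene from its highest probe set. Over all 12123 tested genes 3.35% were called lower and 4.83% higher, and the median difference was -0.01. On this gene level the desmosome components had 3 of 7 tested genes lower and 0 higher, with a median of -0.17. The other desmosomal genes, DSG1, DSG3, DSG4, DSC1 and CDSN, are mostly genes of stratified and cornified epithelia, and all 5 were under the filter level in these cells.

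Among intermediate filament genes, 2 of 6 tested were lower and 0 higher (median -0.02). KRT8, whose product pairs with keratin 18 in simple epithelia, read 8.52 and 8.39 in GFP-RhoGDI2 cells, against 9.80 and 9.58 in GFP cells (difference -1.23, adjusted p = 0.00278). KRT18 read 12.99 and 13.03 in GFP-RhoGDI2 cells, against 13.60 and 13.61 in GFP cells (difference -0.59, adjusted p = 0.0225). The groups did not overlap for either keratin. Each is represented by a probe set ending in _x_at, which can match several transcripts, so near-identical copies cannot be told apart. The KRT18 call was lost when any 1 array was left out without the block, with differences of -0.60 without GFP A, -0.59 without GFP B, -0.57 without GFP-RhoGDI2 A and -0.61 without GFP-RhoGDI2 B. VIM, KRT10, LMNA and KRT7 were not called. The plakins PLEC, DST and MACF1, which also link filaments to membranes, had 0 of 3 tested genes called (0 at an unadjusted p under 0.05), with differences of 0.06 to 0.25.

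Adherens junction genes had 2 of 10 tested higher and 0 lower (median 0.08). A further 2 had an unadjusted p under 0.05 in limma and were not called, VCL at 0.43 and NECTIN1 at -0.32. NECTIN3, for a nectin adhesion molecule, read 7.28 and 7.26 in GFP-RhoGDI2 cells, against 5.06 and 4.83 in GFP cells (difference 2.32, adjusted p = 3.93e-04). CDH2, for N-cadherin, read 6.04 and 6.12 in GFP-RhoGDI2 cells, against 5.46 and 5.34 in GFP cells (difference 0.68, adjusted p = 0.0201). Its other tested probe set, 203441_s_at, differed by 0.49 and was not called (adjusted p = 0.0644). The CDH2 call was lost in fits without the block that left out GFP B (0.62, adjusted p = 0.0643), GFP-RhoGDI2 A (0.72, adjusted p = 0.0776) or GFP-RhoGDI2 B (0.64, adjusted p = 0.113). CDH1, for the epithelial E-cadherin, was under the filter level in both groups, with 3.40 and 3.31 in GFP-RhoGDI2 cells and 3.35 and 3.28 in GFP cells. CTNNB1, for beta-catenin, the close relative of plakoglobin, differed by -0.13 on its highest probe set (adjusted p = 0.449), while its other probe sets differed by 0.52 (adjusted p = 0.0881) and -0.44 (called at adjusted p = 0.0498, and 0.0651 without the block, and not called when any 1 array was left out), and so disagreed.

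Tight junction genes had 1 of 5 tested higher and 0 lower (median -0.13). CLDN1, for claudin-1, differed by 1.01 (adjusted p = 0.00608; 0.0576 without the preparation block). Without the block and 1 array it differed by 0.70 without GFP A, 1.24 without GFP-RhoGDI2 A and 0.78 without GFP-RhoGDI2 B, and was called in none of these 3 fits; without GFP B it was called (1.32, adjusted p = 0.0129). OCLN, for the tight junction protein occludin, read 8.25 and 8.18 in GFP-RhoGDI2 cells, against 8.56 and 8.65 in GFP cells. Its groups did not overlap, and the difference of -0.39 did not pass the test (adjusted p = 0.0706). The number of tight junction genes called, in either direction, ran from 0 to 2 over the alternatives. It was 0 without the block, where 3.01% of all tested probe sets were called higher and 1.70% lower. With an intensity trend it was 2, where 10.7% were called higher and 10.2% lower. Hemidesmosome genes, which anchor keratins to the basement membrane, had 0 of 4 tested called by limma (1 at an unadjusted p under 0.05, LAMB3), with differences of -0.05 to 0.37.

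Of 11 tested transcription factor genes known to regulate epithelial junctions, 2 were higher and 0 lower (median 0.11). SNAI2, for the repressor SLUG, read 6.83 and 7.37 in GFP-RhoGDI2 cells, against 5.07 and 5.07 in GFP cells (difference 2.03, adjusted p = 0.00243). TCF4, for a basic helix-loop-helix factor, read 8.63 and 8.79 in GFP-RhoGDI2 cells, against 7.18 and 7.16 in GFP cells (difference 1.54, adjusted p = 0.00153). SNAI1 differed by -0.07, TWIST1 by 0.12 and ZEB1 by 0.19 on its highest probe set, and these 3 were not called. The other 3 tested ZEB1 probe sets differed by 0.33 to 0.41 and were not called. ZEB2 was under the filter level on all 5 of its probe sets. Whether SNAI2 acts on the desmosomal genes was not tested.

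Of 18 tested genes for enzymes and signalling proteins that act on desmosomes, 2 were higher and 0 lower (median 0.10). The number called in either direction was 1 without the block, where 3.01% of all tested probe sets were called higher and 1.70% lower. It was 7 with an intensity trend (10.7% and 10.2% of all) and 4 with arrays centred on their medians (6.86% and 5.57%). PRKCA, for protein kinase C alpha, whose activity is known to weaken desmosomal adhesion, read 9.54 and 9.86 in GFP-RhoGDI2 cells, against 9.04 and 9.20 in GFP cells (difference 0.58, adjusted p = 0.0273; 0.0663 without the preparation block). It was called in none of the fits that left out 1 array, with differences of 0.50 without GFP A, 0.66 without GFP B, 0.74 without GFP-RhoGDI2 A and 0.42 without GFP-RhoGDI2 B. CAV1, for caveolin-1, differed by 0.82 (adjusted p = 0.00996); it missed the threshold without GFP-RhoGDI2 B and the block (0.77, adjusted p = 0.0641). ADAM17 and ADAM10, proteases that can shed desmoglein-2, differed by 0.42 (adjusted p = 0.0544) and -0.01 (adjusted p = 0.960). ADAM17 was 1 of 4 uncalled genes of this list with an unadjusted p under 0.05 in limma. The others were PTPRK, ADAM9 and MMP9, higher by 0.39, 0.35 and 0.28. EGFR, for a receptor that phosphorylates the plaque, differed by -0.20 (adjusted p = 0.234).

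**Figure D3:**
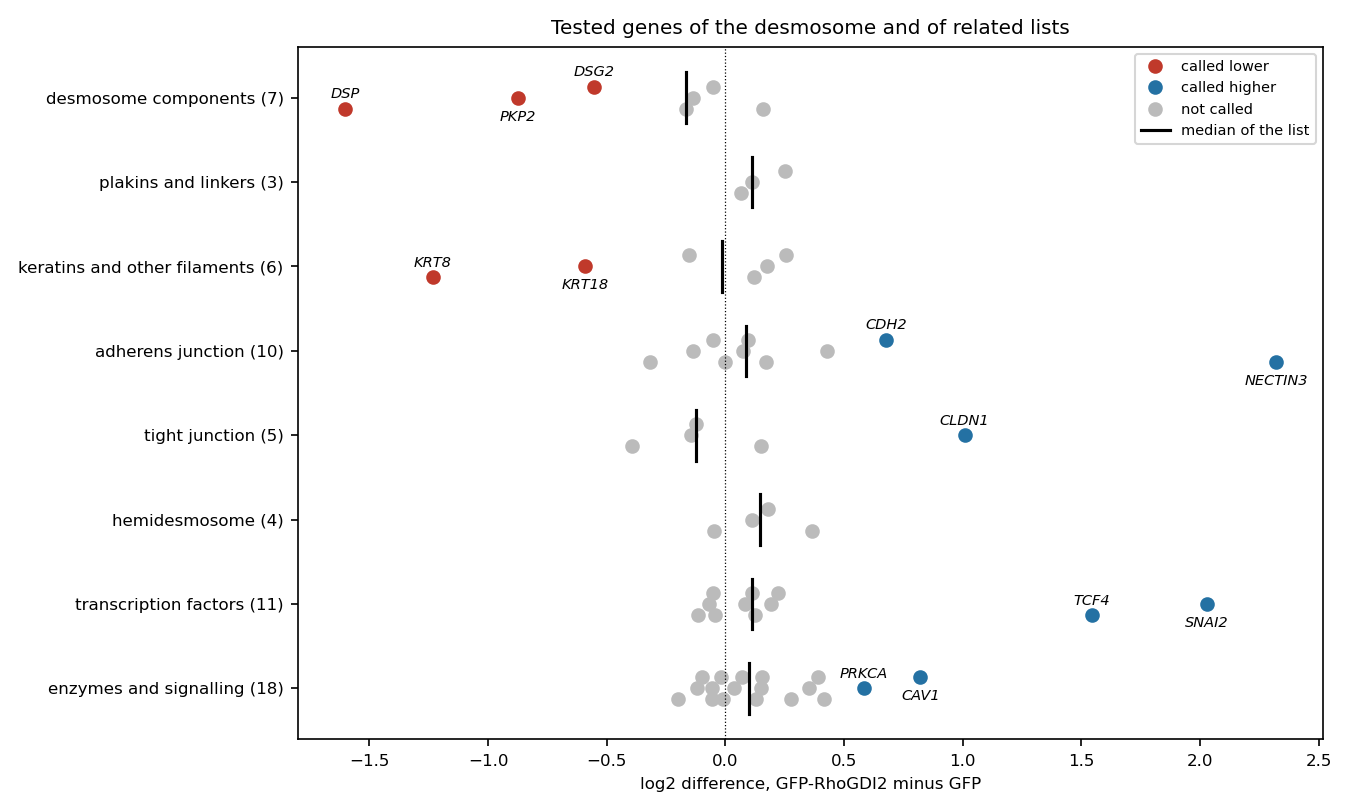
Log2 difference, GFP-RhoGDI2 minus GFP, of each tested gene in the desmosome set (top row) and in 7 related lists, with the number of tested genes in brackets; red and blue points are called lower and higher, grey points were not called, and black bars are list medians. Called genes are lower in the desmosome and keratin rows (DSP, PKP2, DSG2, KRT8 and KRT18) and higher in the adherens junction, tight junction, transcription factor and enzyme rows.

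The 3 called desmosome genes were also set beside their neighbours on the chromosome, the 5 tested genes on each side in the order of the GRCh38.p14 gene table. DSP, on chromosome 6, stood apart from its 10 neighbours, whose median difference was 0.01 and which ranged from -0.50 to 0.15. Of the genes next to it, RIOK1 was called lower (-0.50, adjusted p = 0.0455; 0.0633 without the preparation block, and not called when any 1 array was left out), and SNRNP48, on the other side, differed by -0.12 (adjusted p = 0.756). The remaining neighbours were not called either. DSG2, on chromosome 18, had neighbours with a median of -0.04 and a range of -0.30 to 0.68. The antisense gene DSG2-AS1 differed by 0.05. CDH2, the nearest tested gene on the other side, was the neighbour called higher, on its highest probe set. DSC2 and DSC3 lie together with DSG2 on this chromosome but were not tested, so they are not among these neighbours.

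PKP2, on chromosome 12, had neighbours of mixed direction. Of its 10 neighbours 5 were called lower and 1 higher, against 3.35% and 4.83% of all tested genes. In 8 the difference was below 0, and the median was -0.36. RESF1 differed by -0.78, YARS2, next to PKP2, by -0.55, CPNE8 by -0.72, KIF21A by -0.53 and SLC2A13 by -1.10, while CNTN1 was higher by 1.45. ALG10, next to PKP2 on the other side, differed by -0.03 and was not called. Without the preparation block the calls of YARS2 (adjusted p = 0.0574) and SLC2A13 (adjusted p = 0.135) were lost. In fits that left out 1 array, also without the block, KIF21A was called in none, SLC2A13 only without GFP-RhoGDI2 B (-1.65, adjusted p = 0.0437), YARS2 and CPNE8 only without GFP A (-0.69 and -0.83), and RESF1 in all except the fit without GFP-RhoGDI2 A (-0.69, adjusted p = 0.0767). Neighbours were taken in order among tested genes, with no limit on their distance. The fall of PKP2, -0.87, was seen together with lower values in some of these neighbours but not in all. Whether these falls are linked was not tested.

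**Figure D4:**
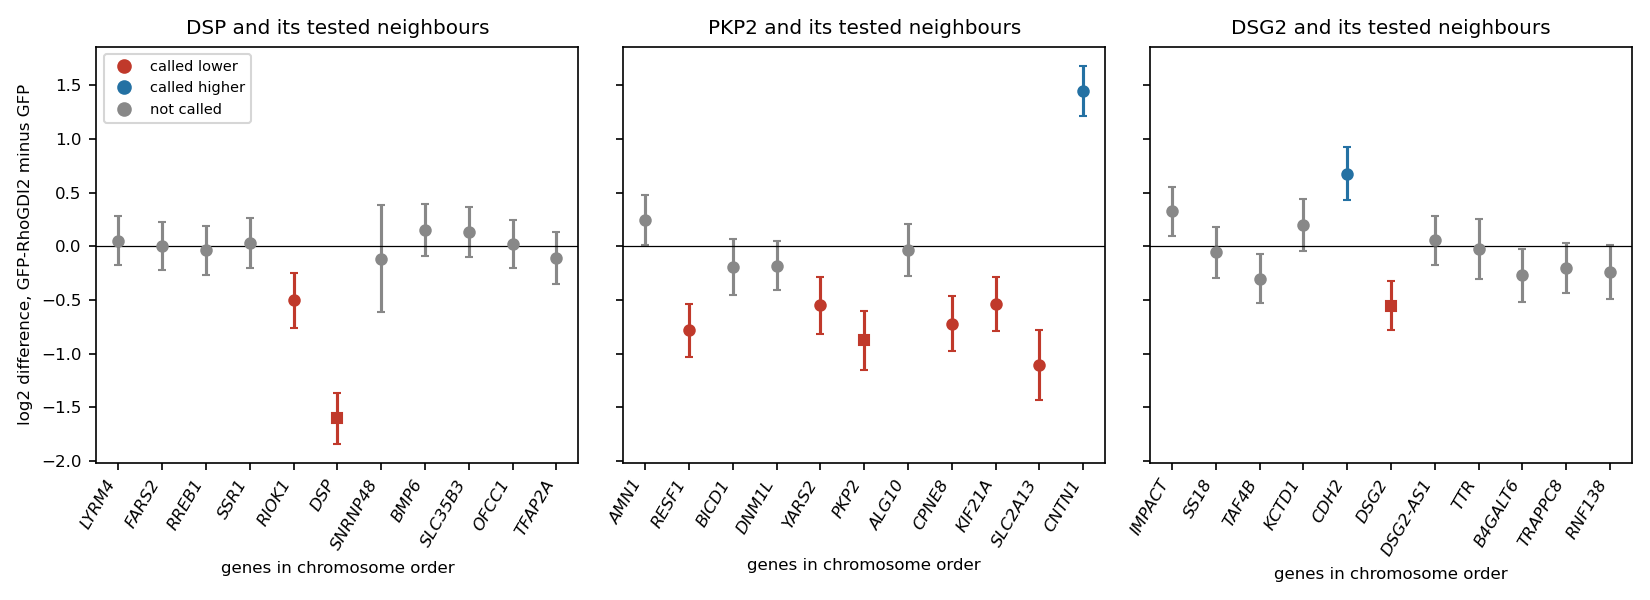
Log2 difference, GFP-RhoGDI2 minus GFP, with 95% intervals for DSP, PKP2 and DSG2 (squares) and the 5 tested genes on each side in chromosome order (circles); red and blue are called lower and higher, grey not called. DSP drops far below its neighbours, whereas 5 of the 10 neighbours of PKP2 are red and lie between -0.53 and -1.10.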

How the data were processed

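The authors deposited log2 expression values per probe set of the Affymetrix HG-U133 Plus 2.0 array, summarised by RMA according to the submitters' processing notes, which name no software version. The 4 arrays had medians of 4.624 to 4.647, and no further normalization was applied. Precision is limited by the number of arrays. Of 54675 probe sets, 62 controls were left out, and 1801 probe sets with several genes were named for none.

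Differences were tested with limma 3.58.1 in R 4.3.3 on the whole table, with the preparation as a block because the labels state the pairing (deviations of same-letter arrays from their group means had r = 0.264 over the tested probe sets). The fit had 1 residual degree of freedom, to which moderation added 4.71, so small SEs rest mainly on the prior SD of 0.101. A gene stands for its probe set with the highest mean. Named genes are the 10 members, ARHGDIB, called list genes (else the largest difference) and a fixed set of junction and transcription factor genes. The 5 nearest to DSP and neighbours of called members are named as well. Other genes were named outside this rule after their values were seen. They are the plakins, OCLN, SNRNP48, ALG10, KRT7, KRT10, LMNA, VCL, NECTIN1, ADAM9, ADAM10, ADAM17, MMP9, PTPRK, EGFR and the markers. Members and lists were chosen with earlier results of these data known. Gene names and promoters came from the platform annotation and RefSeq tables of GRCh38.p14. Other filters, priors, scalings, thresholds and probe set rules were tried as alternatives, as were a fit with no block and fits that left out 1 array.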

Additional observations from a re-analysis of the deposited data

How the results depend on the processing

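The fit without the replicate block called the same 4 probe sets of DSP, PKP2 and DSG2 (adjusted p = 5.85e-04 for DSP, 0.0430 for PKP2 and 0.0329 for DSG2 on 217901_at). It called 1.70% of all tested probe sets lower and 3.01% higher. Leaving out 1 array can be fitted only without the block and assumes that the lone array varies like the other group. In each of these fits fewer of all tested probe sets were called lower than in the main fit. DSP kept its call each time, PKP2 only without GFP A, and DSG2 in none. The differences ran from -1.66 to -1.55 for DSP, from -1.13 to -0.62 for PKP2, from -0.59 to -0.52 for DSG2 and from -0.21 to 0.10 for PKP3, which was positive without GFP B (0.03) and without GFP-RhoGDI2 B (0.10). With no filter on low values 2 of 27 probe sets were called lower, of DSP and PKP2 (0.861% of all). DSG2 was then at -0.55 and not called (limma, adjusted p = 0.0509). Without probe sets ending in _s_at or _x_at 2 of the 5 left were called lower, of DSP and DSG2 (3.30% of all). At adjusted p under 0.01, and with a log2 difference of at least 1 required, 1 was called, that of DSP (0.326% and 0.249% of all lower). With an intensity trend 1 PERP probe set of the 13 tested was called higher, against 10.7% of all. PKP3 was at 0.21 for the mean of its probe sets (adjusted p = 0.0940). The cause of these changes was not tested. The number of all probe sets called, 2085 of 27307 in the main fit, ran from 422 without GFP-RhoGDI2 B to 5721 with an intensity trend. With 2 arrays per group and no detection calls, PKP1, DSC2 and DSC3 could not be judged.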
